A study of Mus musculus with 9 samples.

Results

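In germinal center B cells of mouse spleen, 9 genes of the choice between the germinal center state and the plasma cell state were followed: Bcl6, Bach2, Pax5, Irf4, Irf8, Prdm1, Xbp1, Ell2 and Igj. They were taken by symbol from the gene tables, so all 9 were found among 22977 genes with a unique symbol and a usable estimate. Of these, 8 passed the filter on low values (an FPKM of 1 or more in 3 or more of the 9 libraries) and were tested among 10004 genes, while Prdm1 did not pass. FPKM is a count of fragments per kilobase of RNA, relative to the size of the library. There were 3 libraries each of wild-type light zone cells (LZ), wild-type dark zone cells (DZ) and Foxo1-deficient germinal center cells. Wild-type cells were CD45.1/1 with Foxo1(+/+), Foxo1-deficient cells were CD45.1/2 with Foxo1(f/f), and both carried B1-8hi(KI/+) and ERT2cre(KI/+). Every group thus had ERT2cre, a recombinase switched on by tamoxifen, and the B1-8hi receptor for the hapten NP. Both kinds of B cell were transferred in equal parts into the same C57BL/6 hosts, which were immunized with NP-CGG in alum on day 0, dosed with tamoxifen on days 7, 8 and 9, and used for sorting on day 12. The labels give no age, do not name the locus of the Cre allele and do not say whether replicates came from separate or pooled animals, so the tests measure the spread between these libraries. They also give the Foxo1(f/f) cells as CD45.1/2 but with a CD45.2-negative gate. LZ cells were sorted as high in CD86 and low in CXCR4 and DZ cells as the reverse, whereas Foxo1-deficient cells had no zone gate, so genotype and gate cannot be told apart in either comparison that involves them.

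The germinal center state is held by a group of repressors. Bcl6 represses genes of differentiation and of the damage response, Bach2 represses Prdm1, and Pax5 keeps the B cell program on. Irf8 is abundant in germinal center B cells, while its relative Irf4 acts by dose, with high levels favouring plasma cells. Prdm1 encodes Blimp-1, which shuts down the B cell program, Xbp1 expands the secretory machinery, Ell2 is an elongation factor that favours the secreted form of the antibody heavy chain, and Igj encodes the J chain that joins antibody multimers.

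In the libraries themselves, Foxo1 was 18.5 ± 3.69 in LZ, 21.0 ± 2.99 in DZ and 1.87 ± 1.11 among Foxo1-deficient cells (mean FPKM ± SD, n = 3 here and below). B cell markers were present in all 9 libraries, and 6 of 6 germinal center markers were listed above 0 in each group, with summed FPKM between 338 and 408 for LZ, 392 and 460 for DZ, and 387 and 417 among Foxo1-deficient cells. The 7 macrophage, monocyte or dendritic cell markers had sums of 2.14 to 6.63 for LZ, 0.0819 to 1.98 for DZ, and 90.2 to 197 among Foxo1-deficient cells, with none at 0 throughout the last group. The 4 neutrophil markers in the table summed to 0 in LZ, at most 2.54 in DZ and 73.6 to 125 among Foxo1-deficient cells, where Elane and Mpo remained at 0. For T cells, Cd3e, Cd3g and Cd4 were listed at 0 in all 9 libraries, whereas Lck was at 10.8 to 27.4 FPKM. Cd3d and Cd8a were above 0 in some libraries, at most 1.16 and 0.364. The 6 T cell markers had sums of 26.2 to 28.4 for LZ, 11.4 to 20.1 for DZ, and 14.7 to 24.8 among Foxo1-deficient cells. Relative depth, estimated from the deposited confidence intervals, ran from 0.85 to 1.131.

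FPKM is scaled by length, so levels can be set side by side between genes, but the deposited value was above its own upper confidence bound for Pax5 in 9 libraries, Igj in 6 and Irf8 in 4, so the order of these 3 is uncertain. In LZ the order by mean FPKM was Irf8, Pax5, Igj, Bcl6, Xbp1, Bach2, Ell2, Irf4 and Prdm1. Igj came first in both other groups, Pax5 and Irf8 changed places in DZ, and Ell2 passed Bach2 among Foxo1-deficient cells. Neighbours in this order overlapped over their libraries for Bach2 and Ell2 in LZ, for Bcl6 and Xbp1 and for Xbp1 and Bach2 in DZ, and for Bach2 and Irf4 among Foxo1-deficient cells. Irf8 and Pax5, which stood at percentiles 96.7 to 97.3 of the tested genes by group mean FPKM, overlapped over their libraries in every group, in LZ through Pax5 of library 1 alone. The percentile of Bach2 was 78.6 in LZ, 87.4 in DZ and 54.3 among Foxo1-deficient cells. That of Irf4 was 58.7, 30.3 and 47.0 in the same order. The plots of FPKM by library show these levels.

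**Figure D1:**
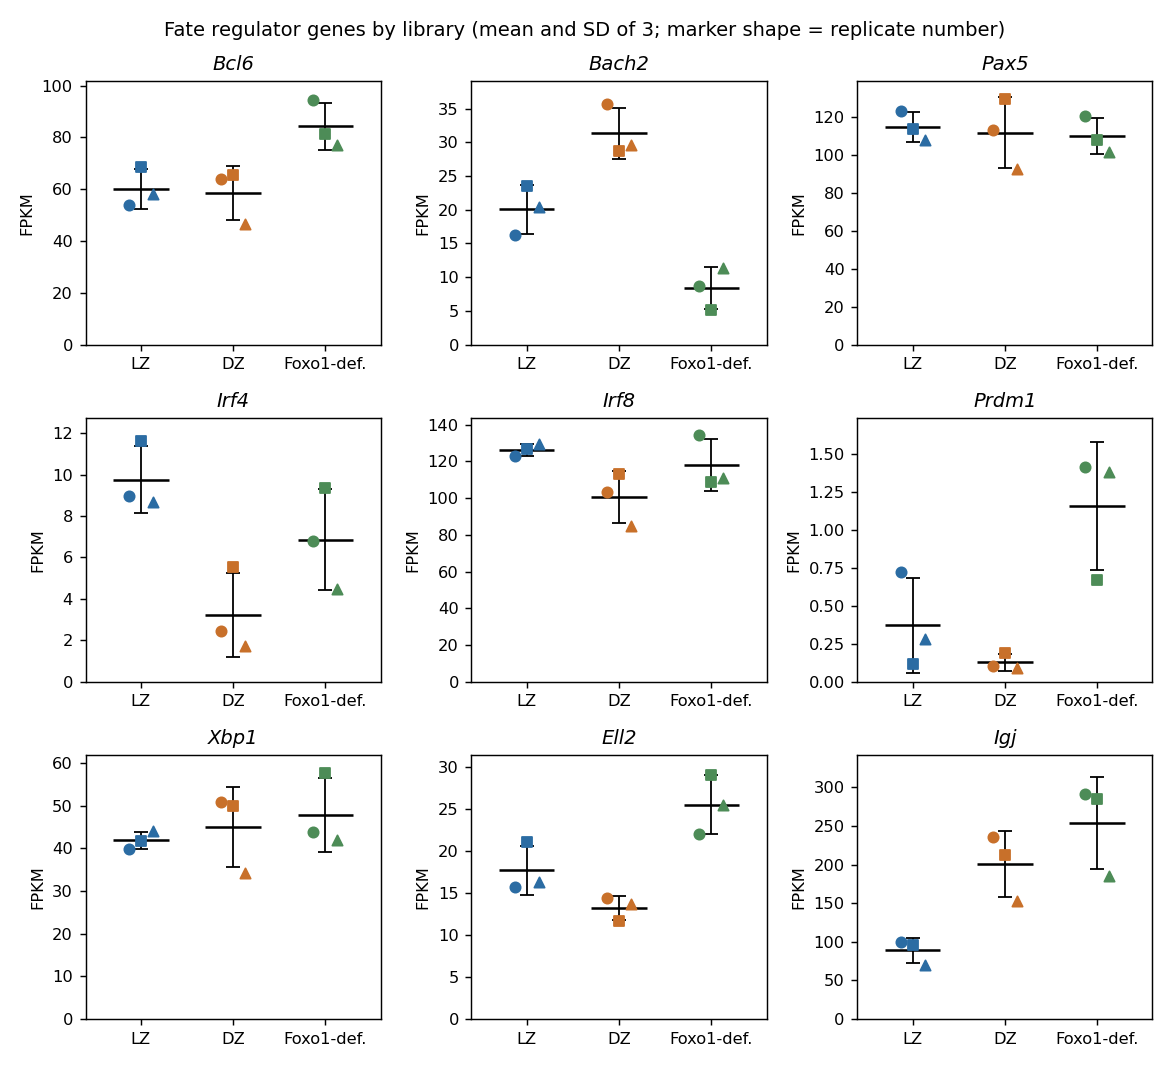
FPKM of the 9 fate regulator genes (vertical axes from 0, a scale of its own per gene) in the 3 LZ, 3 DZ and 3 Foxo1-deficient (Foxo1-def.) libraries. Points are libraries, with 1 marker shape per replicate number, and bars are the mean and SD of 3. Bach2 is below both zones in the 3 Foxo1-deficient libraries (5.09 to 11.3 FPKM), Igj is lowest in LZ, and Pax5 and Xbp1 overlap in all groups.

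Sequence upstream of the start is shown for the 3 genes with a called difference (Bach2, Ell2 and Igj) and for Prdm1, the only one of the 9 whose window held a Foxo motif. Each line is the 250 bases before the RefSeq start, 5′ to 3′ on the gene's strand, in build GRCm38.p6, at chr4:32417185-32417434 (plus strand) for Bach2, chr10:44458749-44458998 (minus) for Prdm1, chr13:75707234-75707483 (plus) for Ell2 and chr5:88527898-88528147 (minus) for Igj, which RefSeq calls Jchain.
Bach2: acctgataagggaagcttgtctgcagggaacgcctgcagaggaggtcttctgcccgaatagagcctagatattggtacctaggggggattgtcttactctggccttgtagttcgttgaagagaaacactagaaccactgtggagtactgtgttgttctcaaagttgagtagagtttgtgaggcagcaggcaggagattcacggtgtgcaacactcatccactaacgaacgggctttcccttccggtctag
Prdm1: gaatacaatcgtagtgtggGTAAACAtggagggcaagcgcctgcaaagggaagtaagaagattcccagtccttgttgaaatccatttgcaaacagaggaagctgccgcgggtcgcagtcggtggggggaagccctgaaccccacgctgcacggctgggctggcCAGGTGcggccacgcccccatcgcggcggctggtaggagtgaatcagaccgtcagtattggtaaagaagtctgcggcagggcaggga
Ell2: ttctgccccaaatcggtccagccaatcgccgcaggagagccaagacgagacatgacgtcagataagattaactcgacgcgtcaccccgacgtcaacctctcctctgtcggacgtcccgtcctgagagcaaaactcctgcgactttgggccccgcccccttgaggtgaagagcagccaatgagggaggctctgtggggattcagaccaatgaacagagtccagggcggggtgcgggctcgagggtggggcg
Igj: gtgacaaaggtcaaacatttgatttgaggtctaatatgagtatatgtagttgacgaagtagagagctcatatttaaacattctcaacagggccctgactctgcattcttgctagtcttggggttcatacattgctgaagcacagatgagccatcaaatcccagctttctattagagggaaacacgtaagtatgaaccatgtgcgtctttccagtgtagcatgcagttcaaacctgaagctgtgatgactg
Capitals mark a match to GTAAACA, a core that Foxo factors bind, and to CAGGTG, an E protein motif, each searched on both strands. The Foxo match begins 231 bases before the Prdm1 start and the E protein match 87 bases before it. Among 32851 RefSeq windows of this length, 3.17% held the Foxo motif, 17.2% the E protein motif, 2.98% the motif of interferon regulatory factors and Prdm1 (GAAA, any 2 bases, GAAA) and 6.91% CCACGT (Xbp1). Of the 9 genes, 1 held the Foxo motif, 3 the E protein motif (Prdm1, Irf8 and Xbp1), and 1 CCACGT (Bcl6), and none held the paired GAAA motif. The Bach2, Ell2 and Igj windows held none of these letters. The Igj window had 3 CpG and 42.0% GC, and the Ell2 window 19 CpG and 61.2% GC, against medians of 6 and 52.4% over all windows.

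Bach2, the repressor of Prdm1, differed most among the genes that hold the germinal center state. Bach2 (chromosome 4, 32504410 to 32673083, mm9) was at 16.2, 23.5 and 20.4 FPKM in LZ libraries 1 to 3, 35.7, 28.7 and 29.6 in DZ, and 8.77, 5.09 and 11.3 among Foxo1-deficient cells. The 3 groups did not overlap, and the order was DZ, LZ, Foxo1-deficient. Tested on the log2(FPKM + 1) scale, which understates changes of low genes, Foxo1-deficient cells had less Bach2 than DZ, by a difference of -1.84 (SE 0.26, adjusted p = 0.00427). Against LZ it fell by 1.21 (SE 0.26, adjusted p = 0.0497). The comparison with DZ passed without each of the 9 libraries in turn (adjusted p from 0.00407 to 0.0264), whereas the comparison with LZ passed only without Foxo1-deficient replicate 3 (0.0455) and was lost without any other library, with adjusted p from 0.0720 to 0.146. It was also lost with a pseudocount of 0.1 (0.0710), with no filter (0.101) and with the DZ libraries left out of the fit (0.137). The LZ to DZ difference was 0.63 (95% interval 0.05 to 1.21, adjusted p = 0.282), and it passed with weights from the implied fragments (0.72, adjusted p = 0.0154). In bulk samples, fewer cells with Bach2 RNA and less of it per cell cannot be told apart. The share of all genes called either way was 1.56% against LZ and 2.85% against DZ.

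Bcl6, the repressor that defines the germinal center program, lay highest among Foxo1-deficient cells, but no difference passed the test. Bcl6 (chromosome 16, 23965138 to 23988698) was at 53.7, 68.5 and 58.0 FPKM in LZ, 63.8, 65.4 and 46.5 in DZ, and 94.5, 81.2 and 77.0 among Foxo1-deficient cells. All 3 Foxo1-deficient values were above all 6 wild-type values, while LZ and DZ overlapped. The log2 difference was 0.48 against LZ (95% interval 0.10 to 0.87, adjusted p = 0.239) and 0.53 against DZ (0.14 to 0.91, adjusted p = 0.155). Over all alternatives the adjusted p against DZ ran from 0.0538 to 0.361.

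Pax5, the B cell identity factor (chromosome 4, 44544378 to 44723312), overlapped between all groups. Its FPKM was 124, 114 and 108 in LZ, 114, 130 and 92.5 in DZ, and 121, 108 and 102 among Foxo1-deficient cells. The log2 differences were -0.05 from LZ to DZ, -0.06 against LZ and -0.01 against DZ, with 95% intervals of -0.39 to 0.28, -0.40 to 0.27 and -0.35 to 0.32.

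The interferon regulatory factors Irf4 and Irf8 were lowest in DZ. Irf8 (chromosome 8, 123260276 to 123280592) was at 123, 126 and 129 FPKM in LZ, 103, 113 and 84.9 in DZ, and 134, 109 and 111 among Foxo1-deficient cells. LZ and DZ did not overlap, but the log2 difference of -0.34 (95% interval -0.66 to -0.01) did not pass (adjusted p = 0.302), and Foxo1-deficient values overlapped both zones. Irf4 (chromosome 13, 30841127 to 30858796) was at 8.98, 11.6 and 8.66 FPKM in LZ, 2.44, 5.52 and 1.71 in DZ, and 6.78, 9.34 and 4.46 among Foxo1-deficient cells. Every DZ library lay below every LZ library, and the Foxo1-deficient values spanned the range between them. The Irf4 difference from LZ to DZ was -1.44 (SE 0.36, adjusted p = 0.0789), which passed without DZ replicate 2, the highest of the DZ values (-1.80, adjusted p = 0.0463), and with weights from the implied fragments (-1.31, adjusted p = 0.0225). Foxo1-deficient cells differed from LZ by -0.49 (95% interval -1.28 to 0.30, adjusted p = 0.604) and from DZ by 0.95 (0.16 to 1.74, adjusted p = 0.217).

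Prdm1, the gene of Blimp-1, was near the limit of detection (chromosome 10, 44156981 to 44178493). It was at 0.721, 0.114 and 0.285 FPKM in LZ, 0.107, 0.190 and 0.0878 in DZ, and 1.42, 0.673 and 1.39 among Foxo1-deficient cells. The confidence intervals imply roughly 27, 7 and 12 fragments in LZ, 7, 8 and 4 in DZ, and 59, 27 and 40 among Foxo1-deficient cells. The Foxo1-deficient values did not overlap DZ and overlapped LZ through LZ replicate 1 alone. Since Prdm1 did not pass the filter, its test comes from the fit with no filter: the difference was 0.92 against DZ (SE 0.21, adjusted p = 0.0831), 0.66 against LZ (SE 0.21, adjusted p = 0.254) and -0.26 from LZ to DZ (adjusted p = 0.692). An exact permutation test on 3 against 3 libraries gave p = 0.1 against DZ, the smallest value it can give, and p = 0.2 in each of the other comparisons, two-sided.

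Prdm1 is also expressed by myeloid cells, and myeloid markers were also higher in the Foxo1-deficient libraries. The order of those libraries differed from marker to marker. Lyz2, the lysozyme of myeloid cells, was at 51.6, 61.2 and 127 FPKM in Foxo1-deficient libraries 1 to 3, and at most 0.174 in the 6 wild-type libraries. Csf1r, the growth factor receptor of macrophages, was at 3.42, 4.53 and 6.37, and was listed at 0 in the 6 wild-type libraries. Among the Foxo1-deficient libraries Prdm1 was lowest in replicate 2, as were Itgam (2.21, 1.70 and 4.59 FPKM) and Cd68 (8.05, 6.37 and 17.2). Lyz2, Csf1r, Itgax, Fcer1g and Tyrobp were lowest in replicate 1. LZ replicate 1, with Lyz2 at 0.174 and Cd68 at 6.09, had Prdm1 at 0.721 FPKM. Foxo1-deficient replicate 2 had Prdm1 at 0.673. Both values rest on an implied 27 fragments, so the order of these libraries is uncertain. Among plasma cell markers, Sdc1, the surface marker CD138, was at 1.66, 0 and 0.713 in LZ, 0.554, 1.76 and 0 in DZ, and 0.556, 2.33 and 0.189 among Foxo1-deficient cells. Tnfrsf17, the survival receptor BCMA, was listed at 0 in all 3 Foxo1-deficient libraries. Fkbp11 went the other way, at 0 in the 6 wild-type libraries and 2.48, 5.21 and 11.5 in the Foxo1-deficient ones, while Slamf7 and Derl3 had means of 22.3 and 20.9 in LZ, 27.7 and 5.31 in DZ, and 13.7 and 7.32 among Foxo1-deficient cells. The 5 plasma cell markers in the table had sums of 42.1 to 47.2 for LZ, 25.1 to 40.2 for DZ, and 26.1 to 30.8 among Foxo1-deficient cells. The part of myeloid RNA in the Prdm1 values was not tested.

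**Figure D2:**
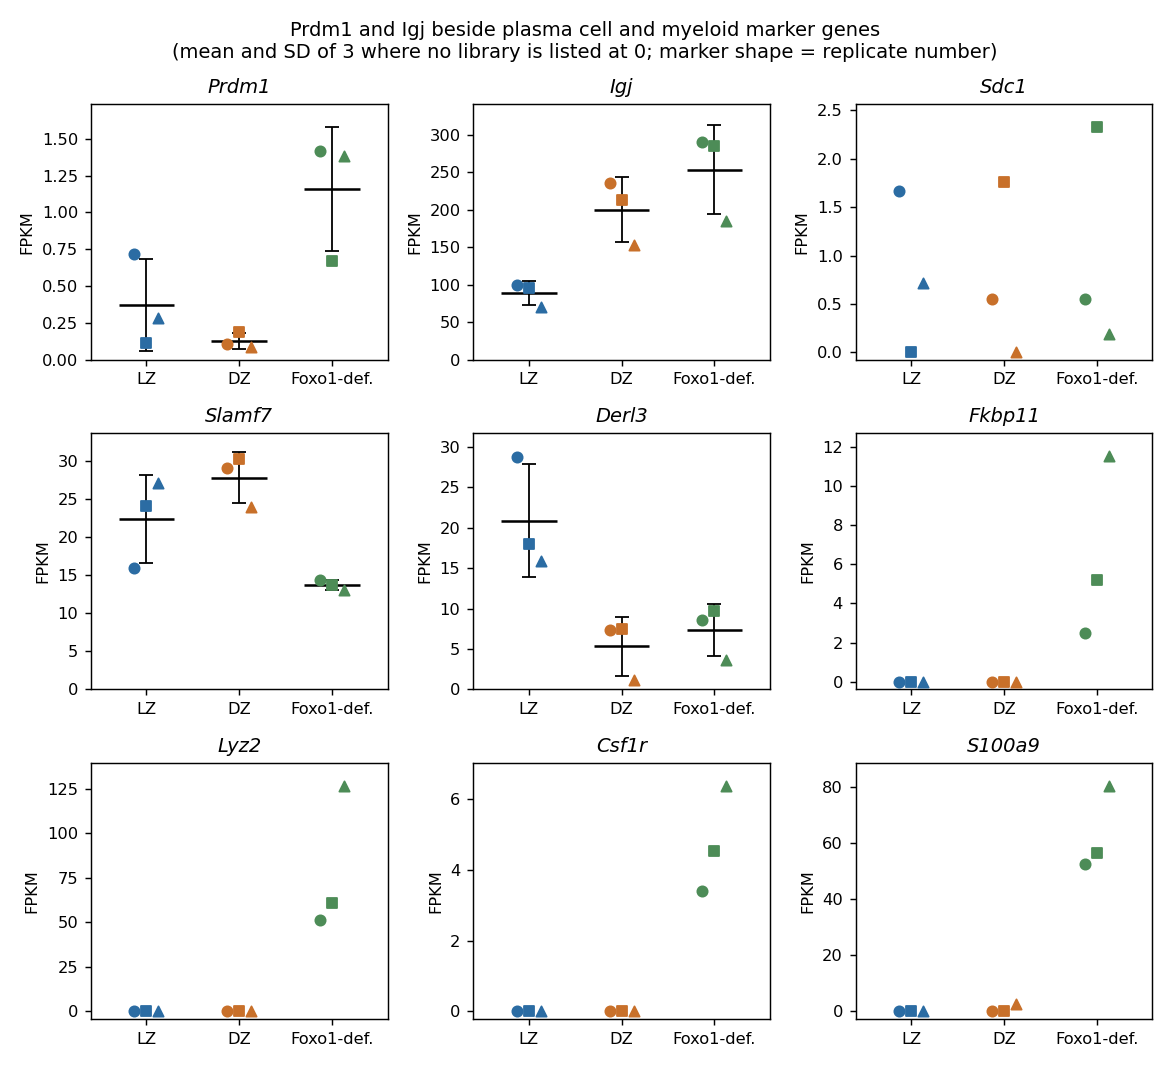
FPKM of Prdm1 and Igj beside plasma cell markers (Sdc1, Slamf7, Derl3, Fkbp11) and myeloid markers (Lyz2, Csf1r, S100a9) in the 9 libraries, with 1 marker shape per replicate number. The mean and SD of 3 are drawn where no library is listed at 0. Fkbp11 and Csf1r are listed at 0 in all 6 wild-type libraries, and Slamf7 is lowest among Foxo1-deficient cells, at most 14.4 FPKM.

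Xbp1, the driver of secretory expansion (chromosome 11, 5420970 to 5425875), overlapped between all groups. It was at 39.8, 41.8 and 44.0 FPKM in LZ, 50.8, 49.9 and 34.1 in DZ, and 43.9, 57.7 and 42.0 among Foxo1-deficient cells. The differences were 0.08 from LZ to DZ (95% interval -0.34 to 0.50), 0.18 against LZ (-0.25 to 0.60) and 0.10 against DZ (-0.33 to 0.52), with adjusted p from 0.748 to 0.902. These are gene totals, so spliced and unspliced Xbp1 RNA were not told apart.

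Ell2, the elongation factor of the secreted heavy chain, was highest among Foxo1-deficient cells. Ell2 (chromosome 13, 75844932 to 75909806) was at 15.7, 21.0 and 16.3 FPKM in LZ, 14.3, 11.6 and 13.7 in DZ, and 21.97, 29.0 and 25.4 among Foxo1-deficient cells. The 3 groups did not overlap, although the highest LZ library and the lowest Foxo1-deficient library were close. Against DZ, Ell2 rose by 0.89 (SE 0.20, adjusted p = 0.0353). That call held without LZ replicate 1 or 2 and was lost without any other library (adjusted p from 0.0504 to 0.143), under median centring (0.71, adjusted p = 0.0666), with the LZ libraries left out of the fit (0.89, adjusted p = 0.0556) and with weights from the implied fragments (0.55, adjusted p = 0.1004). The difference was 0.51 against LZ (95% interval 0.08 to 0.94, adjusted p = 0.279) and -0.39 from LZ to DZ (-0.82 to 0.04, adjusted p = 0.391).

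Igj, the J chain gene, was the member with the largest called rise. Igj (chromosome 5, 88948834 to 88956922) was at 99.96, 96.3 and 70.2 FPKM in LZ, 235, 213 and 153 in DZ, and 291, 285 and 185 among Foxo1-deficient cells. Every DZ and every Foxo1-deficient library was above every LZ library, and those of DZ and Foxo1-deficient cells overlapped. Igj rose by 1.16 from LZ to DZ (SE 0.22, adjusted p = 0.0283). It rose by 1.49 in Foxo1-deficient cells against LZ (SE 0.22, adjusted p = 0.00898), a call that passed without each library in turn (adjusted p from 0.00909 to 0.0483). Between Foxo1-deficient cells and DZ the difference was 0.33 (95% interval -0.16 to 0.83, adjusted p = 0.508). The rise from LZ to DZ did not pass when a single LZ library was left out (adjusted p = 0.0648, 0.0739 and 0.0962 for replicates 1 to 3), nor without DZ replicate 1 (0.108) or 2 (0.0995), nor with no filter (0.0875). The sums of the 5 plasma cell markers, given beside Prdm1, rest mainly on Slamf7 and Derl3, and the 5 differed in pattern. Slamf7 was lowest among Foxo1-deficient cells, and Derl3 was highest in LZ. Sdc1 overlapped between all groups, Tnfrsf17 was at 0 among Foxo1-deficient cells, and Fkbp11 was above 0 only there. Plasma cells' part in the Igj values was not tested.

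Counted together, 1 of the 8 tested members was called from LZ to DZ (Igj, higher), where 1.94% of all tested genes were called (0.56% higher, 1.38% lower). Against LZ, 2 were called in Foxo1-deficient cells (Bach2 lower, Igj higher, background 1.56%, with 0.69% higher and 0.87% lower), and against DZ 2 (Bach2 lower, Ell2 higher, background 2.85%, with 2.1% higher and 0.75% lower). The medians over the 8 were -0.05, 0.06 and 0.28, beside -0.15, -0.02 and 0.12 over all tested genes. Groups did not overlap for 5 of the 8 from LZ to DZ, 4 against LZ and 3 against DZ, and the same was true of 22.3%, 17.5% and 23.1% of all tested genes. All 3 Foxo1-deficient libraries lay above all 6 wild-type libraries for Bcl6 and Ell2 (4.67% of all tested genes) and below them for Bach2 (2.02%). Both comparisons with Foxo1-deficient cells use the same 3 Foxo1-deficient libraries. A change of scaling moved the all-gene median of the LZ to DZ difference from -0.15 to 0.04 under median centring and 0.01 under quantile normalization, and Igj was called from LZ to DZ under both.

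**Figure D3:**
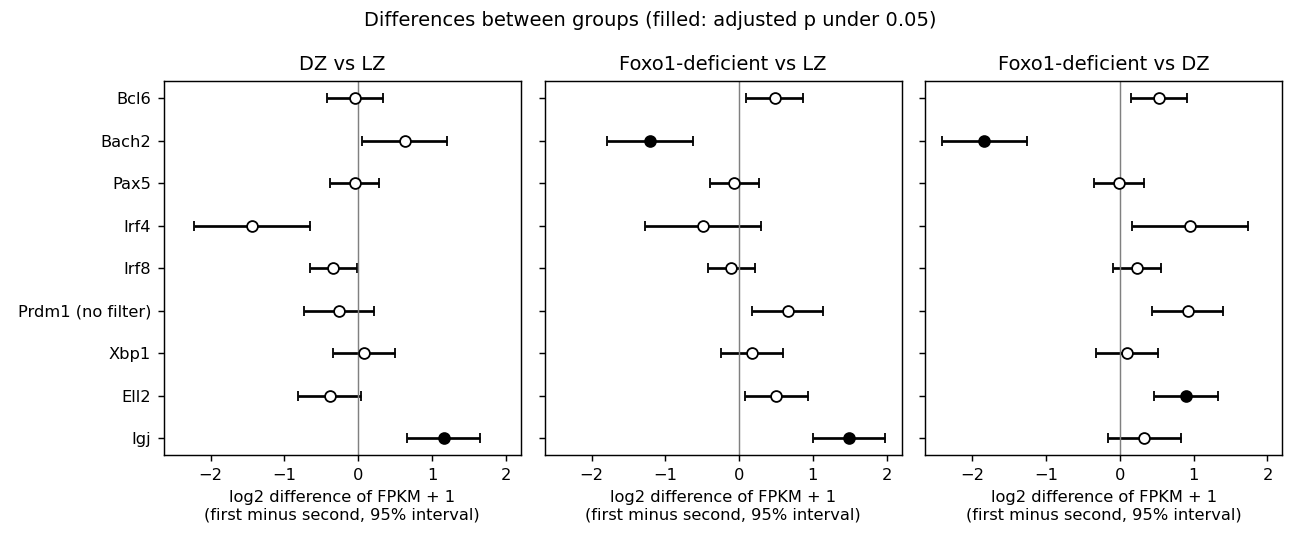
Log2 differences of FPKM + 1 (horizontal axis, first group minus second) for the 9 genes in the 3 comparisons, with 95% intervals from limma; filled points have an adjusted p under 0.05. Prdm1 is from the fit with no filter. The filled points are Igj in the first panel, Bach2 and Igj in the second, and Bach2 and Ell2 in the third.

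Genes linked to these regulators were described by list. Of 24 germinal center state genes, all tested, 2 rose and 1 fell from LZ to DZ (median -0.02, all genes -0.15), and the median was 0.17 under median centring. Gcet2, which restrains the motility of germinal center cells, rose from 18.0 ± 2.38 to 70.1 ± 6.79 FPKM, and Pou2af1, the coactivator OCA-B, from 225 ± 26.3 to 404 ± 20.01. Lmo2, a LIM adaptor of transcription complexes, fell from 28.1 ± 2.70 to 7.51 ± 0.761. In Foxo1-deficient cells against DZ, 3 rose (Lmo2, at 45.3 ± 11.6, Ebf1 and Id3) and 3 fell (Gcet2, at 15.0 ± 3.64, Pou2af1 and Rgs13), with a median of 0.25 beside 0.12 (0.07 beside -0.06 under median centring). Against LZ the median was 0.29 beside -0.02 and 1 gene was called, Rgs13. It fell from 94.3 ± 13.5 to 48.9 ± 4.74 FPKM and encodes a regulator that dampens chemokine receptor signals, and the call was lost with voom weights (adjusted p = 0.0615).

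Of 20 plasma cell identity genes, 14 were tested. From LZ to DZ, Trp53inp1, a stress-response gene, rose (0.93, adjusted p = 0.0433) and Ly6d, a surface protein also found on B cells, fell (-0.99, adjusted p = 0.0409). Against LZ 0 of 14 were called by limma and 0 with voom weights, and 5 had an unadjusted p under 0.05. Of all 10004 tested genes, 1.56% were called against LZ, and 1343 had an unadjusted p under 0.05. Against DZ 1 fell, Slamf7, a surface receptor of plasma cells (27.7 ± 3.35 in DZ, 13.7 ± 0.684 among Foxo1-deficient cells, adjusted p = 0.0380). In the order LZ to DZ, against LZ and against DZ, the medians were -0.04, 0.30 and 0.56. Those of all tested genes were -0.15, -0.02 and 0.12. Under median centring the list's medians were 0.15 from LZ to DZ and 0.38 against DZ, beside 0.04 and -0.06. The part of myeloid RNA in the list's medians was not tested. Only genes that passed the filter enter these medians.

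Of 33 Xbp1-linked secretory genes, 32 were tested. From LZ to DZ 3 fell, with a median of -0.29 beside -0.15 (-0.10 beside 0.04 under median centring): the chaperone Hspa5, or BiP, went from 133 ± 5.98 to 62.5 ± 14.5 FPKM (adjusted p = 0.0179), the calcium-binding chaperone Calr from 178 ± 3.45 to 107 ± 21.2 (0.0425), and the disulfide isomerase Pdia6 from 75.2 ± 7.74 to 37.9 ± 9.26 (0.0295). In Foxo1-deficient cells against DZ the median was 0.38 beside 0.12 (0.20 beside -0.06 under median centring), and 3 genes were called higher, Edem1, Hsp90b1 and Fkbp11. Edem1, which sends misfolded glycoproteins to degradation, rose from 20.3 ± 4.51 in DZ to 52.2 ± 5.01 (1.34, adjusted p = 0.00809), and Hsp90b1, the endoplasmic reticulum form of Hsp90, from 50.9 ± 13.2 to 117 ± 25.0 (1.19, adjusted p = 0.0148). Fkbp11, a prolyl isomerase of secretory cells, was at 2.48, 5.21 and 11.5 FPKM in Foxo1-deficient libraries and listed at 0 in all 6 wild-type libraries. It passed the filter only through the Foxo1-deficient libraries, so its calls against DZ and LZ are counted here but are no support for a difference. No other gene of this list was called against LZ, where the median was 0.05 beside -0.02. There 5 genes, Fkbp11 included, had an unadjusted p under 0.05, as did 1343 of all 10004 tested genes. Derl3, of the same degradation pathway, was at 28.8, 18.0 and 15.9 in LZ, 7.32, 7.47 and 1.15 in DZ, and 8.64, 9.67 and 3.66 among Foxo1-deficient cells. Fkbp11, like the myeloid markers Lyz2 and Csf1r, was highest in Foxo1-deficient replicate 3, and the part of myeloid RNA in the Fkbp11 values was not tested.

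Lists of genes known to be regulated by Bcl6, Prdm1 and Pax5 were described as well. Of 21 Bcl6-repressed genes, 20 were tested. Ccnd2, a D-type cyclin, and Myc, the growth regulator, fell from LZ to DZ (Ccnd2 14.3 ± 0.770 to 0.363 ± 0.266 FPKM, Myc 23.7 ± 2.26 to 6.38 ± 1.88), and Ccnd2 also fell in Foxo1-deficient cells against LZ (1.78 ± 1.07). Outside LZ, Ccnd2 reached 1 FPKM only in Foxo1-deficient replicates 2 and 3. It thus passed the filter only through the LZ libraries, so its calls are counted here but are no support for a difference. Id2, an inhibitor of E proteins, rose against DZ from 3.98 ± 1.78 to 18.7 ± 3.54 FPKM (2.03, adjusted p = 0.00540). It was at 19.3, 14.9 and 21.9 FPKM in Foxo1-deficient libraries 1 to 3, and the part of myeloid RNA in these values was not tested. The list's medians were -0.40, -0.21 and 0.20 in the order LZ to DZ, against LZ and against DZ, beside -0.15, -0.02 and 0.12 over all genes. Under median centring they were -0.21, -0.20 and 0.02, beside 0.04, -0.01 and -0.06. All 7 Prdm1-repressed genes were tested. Myc, the inhibitory coreceptor Cd22 (176 ± 20.1 to 77.5 ± 7.50 FPKM) and the low-affinity IgE receptor Fcer2a (167 ± 26.1 to 30.2 ± 7.22) fell from LZ to DZ, Fcer2a fell against LZ (22.03 ± 4.18), and Cd22 (181 ± 17.0) and Id3, an E protein inhibitor (60.5 ± 9.81 against 33.1 ± 1.93), rose against DZ. The medians were -0.66, 0.04 and 0.69, and -0.46, 0.05 and 0.51 under median centring.

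Of 13 Pax5-activated genes, all tested, 4 fell from LZ to DZ, among them Fcer2a, the complement receptor Cr2 (48.5 ± 6.63 to 17.3 ± 1.72 FPKM) and Swap70, a signalling protein of B cells (142 ± 8.83 to 79.3 ± 12.2). Against DZ 3 rose among Foxo1-deficient cells, Cr2 (76.5 ± 7.10), Swap70 (121 ± 5.46) and the B lineage factor Ebf1 (36.9 ± 2.32 against 19.1 ± 3.19). Against LZ 1 rose and 2 fell: Vpreb3, a protein of B cell receptor assembly, rose from 68.5 ± 6.14 to 156 ± 37.9, while Fcer2a and the inhibitory coreceptor Cd72 fell, Cd72 from 60.7 ± 17.3 to 22.7 ± 8.52. The medians of this list were -0.57, 0.04 and 0.20, and -0.38, 0.05 and 0.02 under median centring, beside the all-gene medians given for the Bcl6-repressed list. Pax5 itself did not pass in any of the 3 comparisons, as given above.

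Partners of the regulators were described in the same way. Over all tested genes, 1.94% were called from LZ to DZ, 1.56% against LZ and 2.85% against DZ. Among 15 tested corepressors and partners of Bcl6 and Bach2, 1 was called, Hmox1, the heme oxygenase that Bach proteins repress and that macrophages also express: it was at 0.216, 0 and 0 FPKM in LZ, 2.30, 0 and 1.79 in DZ, and 4.43, 3.33 and 8.79 in Foxo1-deficient cells (adjusted p = 0.0282 against LZ and 0.127 against DZ). Against DZ and from LZ to DZ 0 of the 15 were called by limma or with voom weights, and 1 in each had an unadjusted p under 0.05. Of all 10004 tested genes, 1629 against DZ and 1542 from LZ to DZ had such a p. In wild-type libraries Hmox1 reached 1 FPKM only in DZ replicates 1 and 3, so it passed the filter only through the Foxo1-deficient libraries. Its call is counted here but is no support for a difference. The highest Hmox1 library was Foxo1-deficient replicate 3, as for Lyz2, and the part of myeloid RNA in Hmox1 was not tested. Among 14 tested genes listed as elongation complex partners of Ell2, the family member Ell3 rose against DZ (19.3 ± 1.93 to 40.0 ± 0.644 FPKM, adjusted p = 0.0145). Aff3, a member of the Aff family, fell against LZ (5.41 ± 1.08 to 0.963 ± 0.559, adjusted p = 0.0249). Of 6 tested members of the interferon regulatory factor family beside Irf4 and Irf8, Irf5 rose against DZ (31.7 ± 3.64 to 62.3 ± 6.15, adjusted p = 0.0179).

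**Figure D4:**
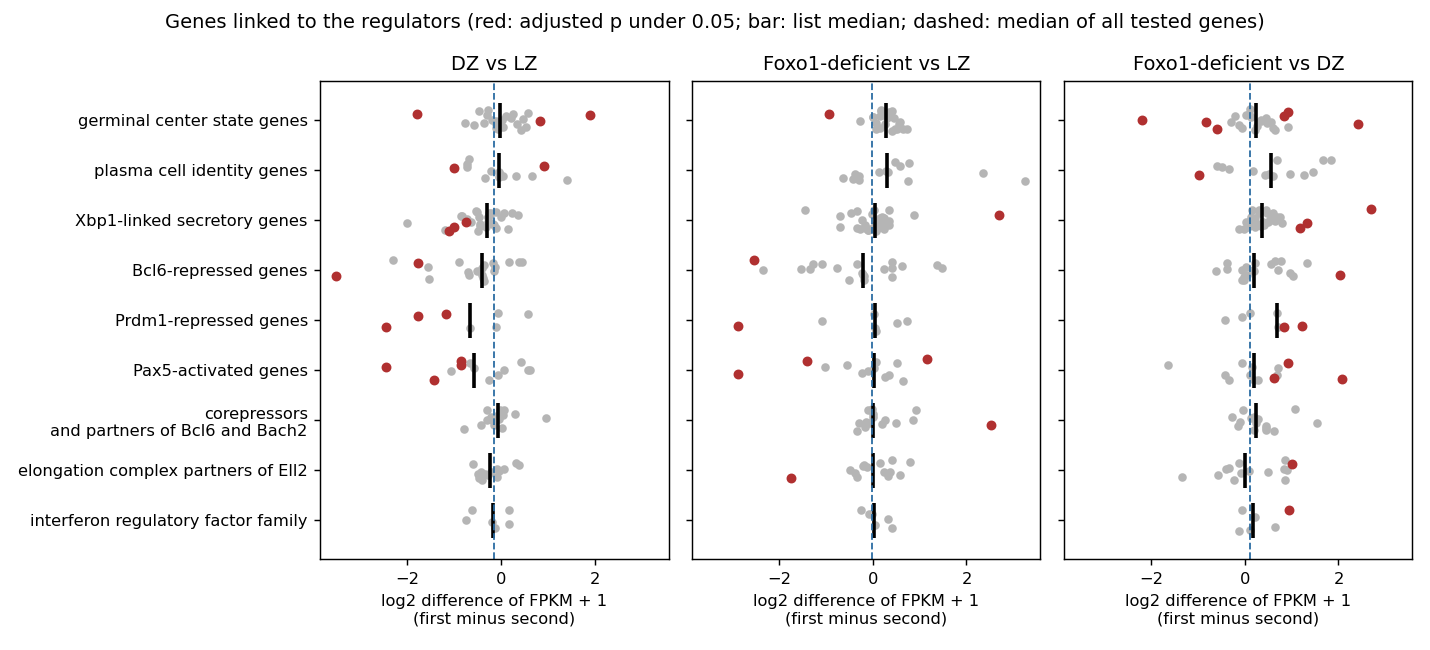
Log2 differences of FPKM + 1 (horizontal axis, first group minus second) of the tested genes of 9 lists linked to the regulators. Each point is a gene, red where the adjusted p is under 0.05; black bars are list medians, and the dashed line is the median of all tested genes. The median of the secretory list lies left of the dashed line from LZ to DZ (-0.29) and right of it against DZ (0.38).

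Of the 39 calls in these lists, 17 passed in every fit without 1 library that tested the gene, among them those of Ccnd2, Cd22, Cr2, Fcer2a, Gcet2, Lmo2, Myc, Id2 and Edem1, those of Pou2af1 from LZ to DZ and those of Fkbp11 against DZ. The other 22 were lost without at least 1 library, with adjusted p up to 0.163. Under the other alternatives 21 of the 39 passed throughout, and 15 passed in every fit of both kinds. Of the 17, Fkbp11 against DZ was lost with voom weights (0.164) and Ccnd2 against LZ with a pseudocount of 0.1 (0.0523). The calls of Fkbp11, Ccnd2 and Hmox1 keep the limit given above, that each passed the filter only through the group where it was highest. Voom weights also ended the calls of Fkbp11 against LZ (0.199), Hmox1 (0.260), Rgs13 against LZ (0.0615) and DZ (0.125), Id3 (0.0564), Pou2af1 against DZ (0.0987) and Swap70 against DZ (0.0613). Hsp90b1 was lost without Foxo1-deficient replicate 2 (0.0672), Fkbp11 against LZ without LZ replicate 1 or 2 (up to 0.0541), Vpreb3 without LZ replicate 1 or 3 or Foxo1-deficient replicate 3 (up to 0.0556), Ebf1 without DZ replicate 2 or Foxo1-deficient replicate 1 or 2 (up to 0.0720), and Swap70 from LZ to DZ without LZ replicate 1 or 2 or DZ replicate 2 (up to 0.0696). Ell3 was lost without DZ replicate 1 or 3 or Foxo1-deficient replicate 1 or 2 (up to 0.0609), Irf5 without DZ replicate 2 or 3 or Foxo1-deficient replicate 1 or 2 (up to 0.0809), and Rgs13 against LZ without LZ replicate 1 or 2 or Foxo1-deficient replicate 1 or 2 (up to 0.0716). Aff3 was lost without any LZ library or Foxo1-deficient replicate 2 or 3 (up to 0.0908), Hspa5 without any LZ library or DZ replicate 1 or 3 (up to 0.0703), and Id3 and Rgs13 against DZ without any DZ library or Foxo1-deficient replicate 1 or 2 (up to 0.0872). The calls of Calr, Pdia6, Cd72, Hmox1, Ly6d, Slamf7, Trp53inp1, of Pou2af1 against DZ and of Swap70 against DZ passed in at most 3 of the 9 such fits.

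The genes whose FPKM pattern over the 9 libraries was most like that of a called member were found by Pearson's r on log2(FPKM + 1), which describes 9 libraries that share the same 3 groups. For Bach2 they were St6gal1 (r = 0.971), A130040M12Rik (0.963) and Syk (0.956). St6gal1, a sialyltransferase, was 54.7 ± 4.29 in LZ, 65.0 ± 3.97 in DZ and 39.1 ± 5.71 among Foxo1-deficient cells, and Syk, a kinase of the B cell receptor, 102 ± 13.1, 111 ± 12.0 and 64.1 ± 8.23. For Ell2 they were Chd7 (0.960), Klhl20 (0.958) and Pip4k2a (0.952), of which Pip4k2a, a lipid kinase, was 21.8 ± 3.56, 15.6 ± 1.42 and 30.9 ± 1.37. For Igj they were Mcrs1 (0.949), Serinc3 (0.946) and Gm600 (0.938), of which Mcrs1 was 6.97 ± 0.625, 13.6 ± 0.876 and 14.1 ± 1.13. Among the 9 genes themselves, the highest r was 0.817 between Irf4 and Irf8 and the lowest -0.858 between Bach2 and Ell2.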

How the data were processed

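Per the labels' protocols, RNA came from TRIzol extraction and went into NEBNext Ultra libraries. Cufflinks 2.1.1, TopHat2 2.0.8 and the build mm9 appear in the submitters' processing notes, with no role or order. The deposited values are FPKM per gene with confidence bounds, in 1 table for each library, per the file headers. How the authors scaled FPKM is not given in these sources. Of 23700 entries, 716 of repeated symbols and 7 genes with a failed or excluded estimate were left out. limma 3.58.1 (R 4.3.3) with an intensity trend was fitted to log2(FPKM + 1) over 10004 genes with FPKM of at least 1 in at least 3 libraries, all 9 libraries in 1 fit. P-values are two-sided and Benjamini-Hochberg adjusted over all genes within a comparison, with a threshold of 0.05. The fit was tested on simulated data. Depth is not stated; implied fragments take the bounds as 2 SD of a Poisson count. The members and gene lists were chosen with earlier results of these data known. Named genes were the 9 members, Foxo1, up to 4 called genes per list by smallest adjusted p, every gene where a count was 5 or fewer, and the 3 genes most like each called member. Further called genes were named after their values were seen. Motifs were searched in RefSeq windows (GRCm38.p6), and coordinates of genes are mm9 as in the files. The values of 1 gene of the lists are not reported here.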

Additional observations from a re-analysis of the deposited data

How the results depend on the processing

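Each count of called members was recomputed under the alternatives. From LZ to DZ the count of 1 became 0 with no filter, 3 with voom weights on implied fragments, and 0 to 1 without 1 library; it was 1 under the other scalings and pseudocounts. Against LZ the count of 2 became 1 with a pseudocount of 0.1, with no filter and with the uncompared group left out, and 1 to 2 without 1 library. Against DZ the count of 2 became 1 under median centring, with the uncompared group left out and under voom weighting, and 1 to 2 without 1 library. Using the midpoint of the deposited interval in place of FPKM, an alternative chosen after seeing the data, gave 1, 2 and 2. With the replicate number as a block the counts were 2, 1 and 1: Irf4 passed from LZ to DZ (-1.44, adjusted p = 0.0372), and the calls of Bach2 against LZ (-1.21, 0.0759) and Ell2 against DZ (0.89, 0.0645) did not pass. Same-numbered libraries of different groups had correlations of deviations of -0.067 to 0.075, and the labels do not say that a number marks a shared host or day, so the block was not used elsewhere. No call of a member changed direction in any of these alternatives. Over all genes, the 194, 156 and 285 calls became 109, 163 and 256 with no filter, 122, 58 and 208 with the uncompared group left out, and 149, 99 and 211 with a pseudocount of 0.1. Calls against DZ were 210 higher and 75 lower, and 181 and 225 under median centring, and those from LZ to DZ 56 and 138, and 133 and 101. The cause of these differences was not tested. Depth limits Prdm1 most, with an implied 4 to 59 fragments per library.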

Other observations

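The deposited FPKM of Pax5 lay above the upper bound of its own Cufflinks interval in all 9 libraries, that of Igj in 6 and that of Irf8 in 4. Per library, 4.2% to 6.19% of genes at an FPKM of 1 or more lay above their own bound. With the midpoint of the interval in place of FPKM, Bach2, Igj and Ell2 had the same calls in the 3 comparisons.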
